A study of Mikania micrantha with 15 samples.

Results

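The growing tip of the shoot was compared with the stem that forms behind it in the vine Mikania micrantha, a member of the daisy family that climbs and spreads quickly. The comparison took the 3 libraries labelled shoot apex and the 3 labelled stem, 6 of the 15 RNA sequencing libraries in the series, and used every gene ID with enough reads. The other libraries came from flower, leaf and root, with 3 each. All tissues were from wild-type vines grown from cuttings with 2 stem nodes, rooted in water to a root length of 4 to 5 cm and then kept 60 days in Hoagland solution, a mineral nutrient medium, in a growth room at 24 °C with the lights on for 16 h and off for 8 h each day. The labels give no genotype beyond wild type and no plant age beyond this culture time, and do not say whether replicates were separate plants or pools, so the p-values measure no more than how these libraries scatter, in part perhaps for technical reasons.

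A shoot apex holds the apical meristem, a dome of dividing cells, together with the youngest leaf primordia and the internodes that have not yet elongated. The stem below it consists largely of cells that no longer divide, apart from those of the cambium. It carries xylem and phloem, the water-conducting and sugar-conducting tissues, with thickened and often lignified walls. The labels do not say which part of the stem was sampled. A climbing vine invests in fast elongation of this stem. The gene IDs in the deposited table are locus tags without names or products, so the meristem, cell division, xylem and phloem markers listed for a check of the tissue labels could not be looked up, and the labels were not checked against markers here. Genes are therefore described by ID, by level and by pattern across organs.

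Shoot apex libraries held 11023970 to 12817396 counts. Stem replicates 1 to 3 held 5445218, 6655105 and 9721732, so replicate 3 was the deepest stem library. One library stood apart. Stem replicate 3 had a Pearson r of 0.951 and 0.955 with stem replicates 1 and 2, which had 0.978 with each other, while the shoot apex libraries had 0.980 to 0.991. These correlations are of log2 CPM (read counts scaled to a common library size) across genes, which are not independent replicates. Stem replicate 3 was also the stem library nearest to shoot apex, with an r of 0.813 to 0.822 against 0.784 to 0.811 for the other stem libraries. The biological coefficient of variation was 14.0% in shoot apex and 29.5% in stem. No 2 replicates agreed within sampling noise, since the chi-square over its degrees of freedom was at least 2.07 for every replicate pair of these tissues.

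The tests called 12459 genes (46.1%) between tip and stem, and the directions differed in character. A further 3821 genes passed the adjusted p threshold with under 2-fold. Of 27055 genes tested, 7107 (26.3%) were higher in shoot apex and 5352 (19.8%) were higher in stem, by the edgeR quasi-likelihood F test at a Benjamini-Hochberg adjusted p under 0.05 and at least 2-fold. The genes higher in shoot apex were many and of low to middling read level, whereas the genes higher in stem were fewer and included nearly all of the most heavily read ones. The groups of 3 libraries did not overlap for 7063 of the genes higher in shoot apex and 5142 of those higher in stem. The calls were made from these same libraries, so this separation is largely built in. The share over all genes tested is not given here. Without stem replicate 3 the tests called 6984 genes higher in shoot apex and 5672 higher in stem. With plain library totals in place of trimmed mean of M-values (TMM) scaling, shoot apex held 70.8% of the calls and not 57.0%, since that scaling moved all log2 fold changes up by a median of 0.36. CPM are shares of a library's reads, so a gene can be lower because other genes took more reads. In whole tissue, fewer cells of a type and less RNA per cell cannot be told apart.

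Read level separated the directions. Taking the higher tissue's mean, 30 genes reached 1000 CPM or more, and 29 of them were called higher in stem by the edgeR test. All 30 reached that level through their mean in stem, since the highest mean of any tested gene in shoot apex was 810.4 CPM. Between 100 and 1000 CPM, 41.1% of 3497 genes were higher in stem and 11.6% in shoot apex. Below 10 CPM the order was the opposite, with 27.9% of 9497 genes higher in shoot apex and 14.4% higher in stem. With plain library totals the shares were 26.9% for stem and 16.3% for shoot apex between 100 and 1000 CPM, and 10.9% and 33.9% below 10 CPM. Reads per gene also depend on gene length, which was not used here, so these are classes of read level and not of transcript number.

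**Figure D1:**
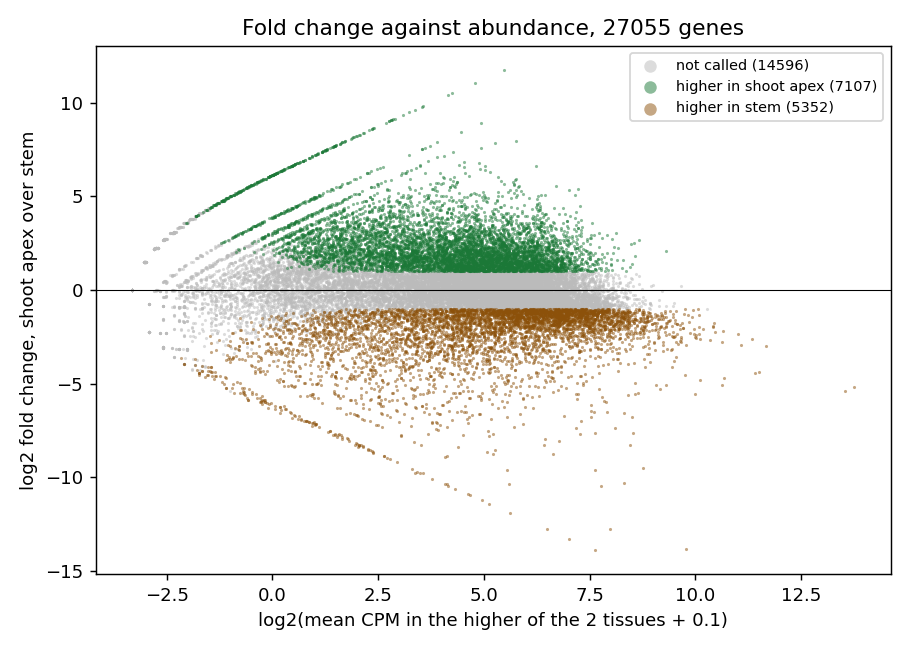
Each point is 1 of 27055 genes, with the log2 of its mean CPM in the higher tissue (0.1 added) on the x axis and its log2 fold change of shoot apex over stem on the y axis; green points were called higher in shoot apex, brown higher in stem and grey neither. The brown cloud reaches further to the right, where 29 of 30 genes of at least 1000 CPM were higher in stem, and the diagonal lines at the left are genes with few or no reads in 1 tissue, whose fitted folds are not measured folds.

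The size of the differences was large in both directions. At least 4-fold was reached by 3761 genes higher in shoot apex and 2480 higher in stem, and at least 16-fold by 794 and 684. At the far end the balance turned, with 34 genes at least 256-fold higher in shoot apex and 60 in stem, by fitted folds that depend on the prior count where a tissue has no read. No read in any stem library was seen for 281 of the genes higher in shoot apex, and no read in any shoot apex library for 159 of those higher in stem. Few of these were strongly expressed in the other tissue, since 7 and 17 of them reached a mean of 10 CPM there. These are limits of detection at the depth of these libraries.

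More genes were detected in the tip than in the stem. At least 1 CPM in all 3 shoot apex libraries and under 1 CPM in all 3 stem libraries was found for 1385 IDs, against 461 with the reverse pattern, and 19312 IDs reached 1 CPM in all 6 libraries. After every library was thinned to 5445218 reads, the total of stem replicate 1, the numbers were 1339 and 441. Thinning matched the totals and not the composition of the libraries, in which the most heavily read ID took 0.288% to 1.95% of stem counts and 0.0923% to 0.0983% of shoot apex counts. At that total each shoot apex library held reads for 27628 to 27965 IDs and each stem library for 25554 to 26794, with stem replicate 3 the highest of stem.

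The genes higher in shoot apex took 25.8 ± 0.424% of the counts of shoot apex (SD, n = 3) and 5.63 ± 0.682% of those of stem. Those higher in stem took 45.7 ± 5.31% of stem and 16.3 ± 0.334% of shoot apex. Within stem the share of the genes higher in stem was 49.7% in replicate 1, 47.8% in replicate 2 and 39.7% in replicate 3. It fell as total counts rose, and did so within flower, leaf and root too. In root it was 46.4% at 3777165 counts, 42.2% at 5468010 and 39.9% at 10015399. In leaf it was 37.1% at 7952050 counts, 31.7% at 10070191 and 26.4% at 12001006. In shoot apex it was 16.1% to 16.7%, without that order. The part of depth in these shares was not tested. Summed over the stem libraries, 536 of the 5352 genes higher in stem held 50% of that set's counts. Summed over the shoot apex libraries, 1067 of the 7107 genes higher there held 50% of theirs. The top 10 IDs held 7.68% of the stem set's counts and 1.73% of the shoot apex set's, so the stem set was the more concentrated. These shares describe the libraries from which the calls were made and carry no test.

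**Figure D2:**
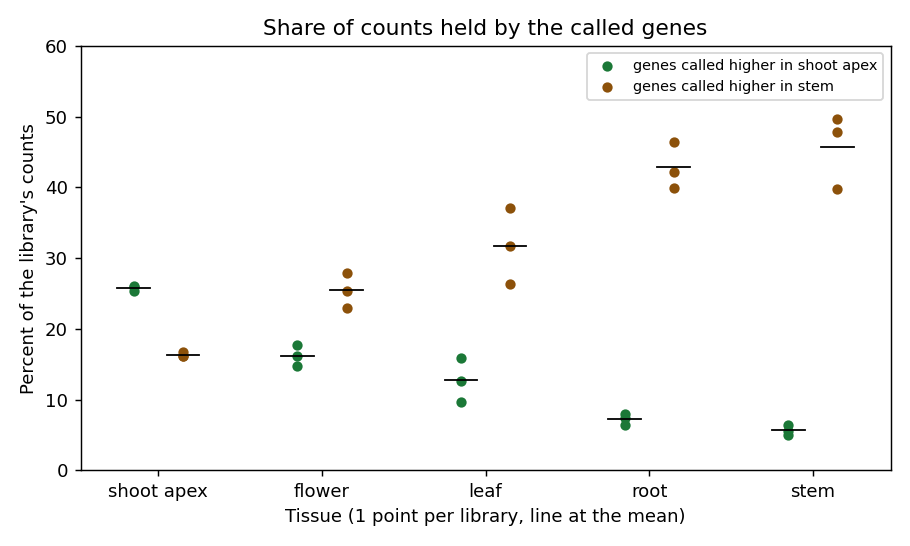
Points are the 15 libraries, with the percent of each library's counts held by the 7107 genes called higher in shoot apex (green) and the 5352 called higher in stem (brown), and lines mark the mean of 3 libraries. From left to right the brown shares go from 16.3% in shoot apex through 25.4% in flower, 31.7% in leaf and 42.8% in root to 45.7% in stem, and the green shares go from 25.8% to 5.63%.

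The most heavily read gene of the shoot apex direction was E3N88_34610. Its CPM were 604, 605 and 691 in shoot apex replicates 1 to 3 and 178, 174 and 103 in stem replicates 1 to 3. All shoot apex libraries lay far above all stem libraries, with stem replicate 3 the lowest. The log2 fold change of shoot apex over stem was 2.06 ± 0.22 (SE, edgeR adjusted p = 4.21e-06). Flower, at 421 ± 71.8 CPM (SD, n = 3), stood closest to shoot apex, whereas leaf was at 36.5 ± 6.29 CPM, below stem and root.

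E3N88_41229 had the largest fold of the shoot apex direction among genes with more than 3 stem reads. Shoot apex replicates 1 to 3 were at 56.1, 55.2 and 52.0 CPM, and stem replicates 1 to 3 at 0.887, 0 and 0 CPM. This gene was close to silent in stem, with 4 reads, all of them in replicate 1. The ratio of summed reads over scaled totals was 276, with a 95% exact (Clopper-Pearson) interval of 108 to 1013 that covers counting error only (edgeR adjusted p = 5.02e-06). Without stem replicate 1, shoot apex was at least 285-fold higher, against a floor of 3 reads over the remaining stem libraries. Without stem replicate 3 the fitted log2 fold change went from 7.96 to 6.97, and without stem replicate 1 it was 12.09, a fitted value against no read. Flower held this transcript at 93.6 ± 17.6 CPM, while leaf and root were at 0.527 ± 0.847 and 0.221 ± 0.382 CPM.

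In the stem direction the most heavily read gene was E3N88_24217. It stood at 484, 332 and 332 CPM in shoot apex replicates 1 to 3 and at 23573, 15286 and 2807 CPM in stem replicates 1 to 3. The groups did not overlap, but the stem libraries differed by more than 4-fold among themselves, as they did for 508 of the 5352 genes higher in stem (9.49%). The log2 fold change was -5.18 ± 0.92 (SE, edgeR adjusted p = 0.000236), and -4.56 without stem replicate 1 (edgeR adjusted p = 0.000927). Root showed the same unevenness, with 2741 CPM in replicate 1 and 35389 and 22932 CPM in replicates 2 and 3. Those root libraries held 10015399, 3777165 and 5468010 counts. In stem, root, leaf and flower alike, the lowest value was in the library with the most counts, at 1296 CPM in leaf and 2265 CPM in flower. Shoot apex showed no such order. The part of depth in this was not tested. How reads of near-identical copies were counted is not given in the sources used here.

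E3N88_04943 had the largest fold of the stem direction among genes with more than 3 shoot apex reads. Shoot apex replicates 1 to 3 were at 0.143, 0.132 and 0.157 CPM, and stem replicates 1 to 3 at 275, 249 and 133 CPM. The transcript was all but missing from the tip and plentiful in every stem library. Summed reads over scaled totals put stem 1377 times above shoot apex, with 632 to 3755 as the 95% exact interval (log2 fold change -10.45 ± 0.53, SE, edgeR adjusted p = 3.79e-08). Root, at 55.0 ± 8.71 CPM, came next, then flower at 11.0 ± 3.48 CPM, and leaf was at 0.196 ± 0.275 CPM.

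**Figure D3:**
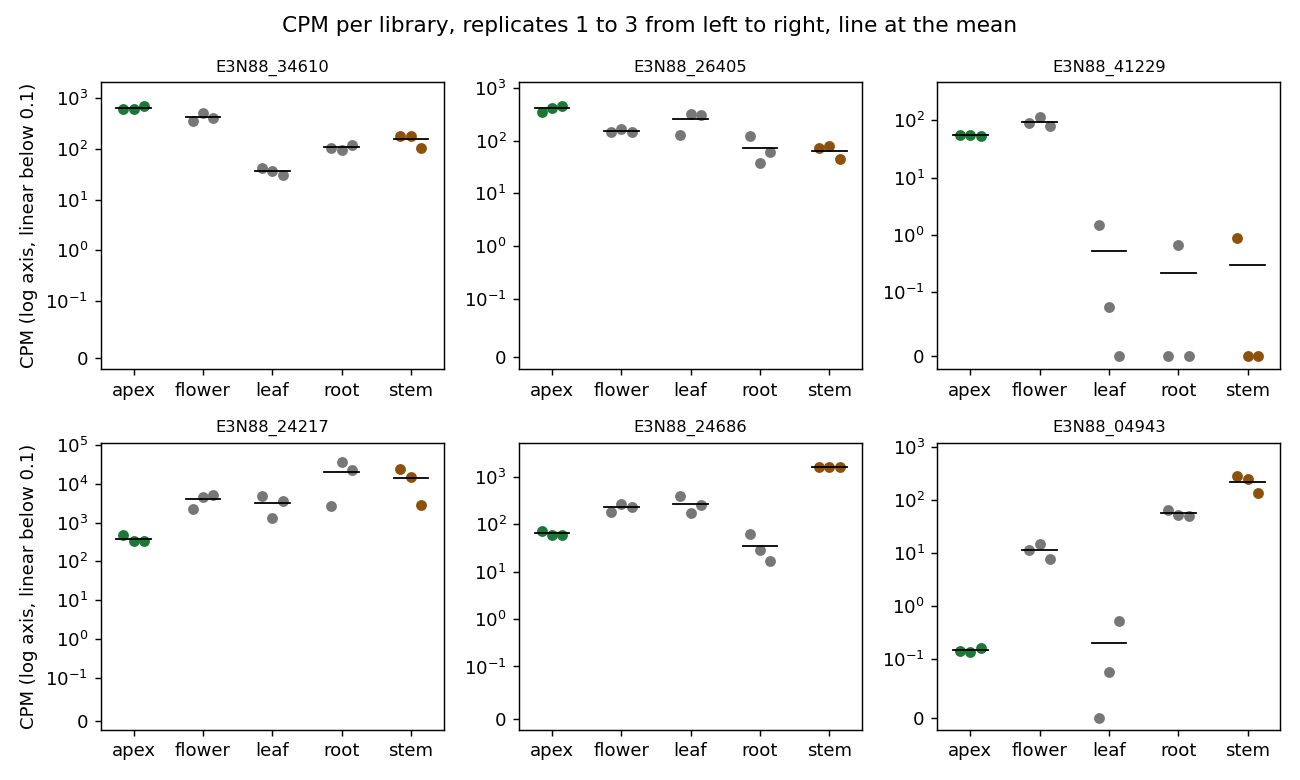
CPM of 6 genes in all 15 libraries, with a logarithmic axis that is linear below 0.1 CPM; points are replicates 1 to 3 from left to right and lines the mean, with shoot apex in green, stem in brown and the other tissues in grey. The upper genes are higher in shoot apex and the lower ones in stem, and E3N88_24217 spans 2807 to 23573 CPM within stem, whereas E3N88_24686 spans 1637 to 1647 CPM.

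Where the same genes stood in flower, leaf and root was asked with contrasts between those organs. They compare no shoot apex or stem library, although the shared fit used all 15 libraries for scaling, filtering and spread. The genes of the tip leaned to flower and those of the stem to root. Between flower and root, 3372 of the 7107 genes higher in shoot apex (47.4%) were higher in flower and 405 (5.70%) in root, where the shares of all genes tested were 27.0% and 17.9%. Of the 5352 genes higher in stem, 710 (13.3%) were higher in flower and 2279 (42.6%) in root. The median log2 fold change of flower over root was 1.10 for the genes higher in shoot apex, -0.86 for those higher in stem and 0.23 for all genes. The TMM scaling factors were 0.801 to 0.905 in root and 0.828 to 1.03 in stem. In flower they were 1.07 to 1.19, in shoot apex 1.15 to 1.18 and in leaf 0.921 to 1.07. Any part of this likeness between libraries in the shares was not tested.

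Leaf against root gave the same arrangement. Here 36.0% of the genes higher in shoot apex were higher in leaf and 9.57% in root, against 23.3% and 20.0% of all genes. Of the genes higher in stem, 15.9% were higher in leaf and 41.7% in root. Flower against leaf separated the sets least. Flower was higher for 24.2% of the shoot apex genes and 18.7% of the stem genes, near the 20.2% of all genes, and leaf was higher for 11.4% and 22.3%, around the 15.7% of all genes. With each contrast fitted to the libraries of its own pair alone, the flower and root shares were 44.0% and 5.45% for the shoot apex genes, 11.6% and 45.7% for the stem genes, and 22.5% and 18.2% for all genes shared by the fits.

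Taking only the organ with the highest mean among flower, leaf and root, flower led for 55.9% of the genes higher in shoot apex, leaf for 32.7% and root for 11.5%. For the genes higher in stem the shares were 15.5% for flower, 24.3% for leaf and 60.2% for root, and for all genes tested 35.8%, 30.4% and 33.7%. An order over all 5 organs is partly fixed, because shoot apex and stem chose the sets, and the shares over all genes are not given here. Shoot apex had the highest mean for 4753 of its 7107 genes (66.9%), and stem had the highest mean for 2361 of its 5352 (44.1%). Shoot apex had the lowest mean of all organs for 3086 of the genes higher in stem (57.7%), and stem the lowest for 3384 of the genes higher in shoot apex (47.6%). Many genes higher in stem were thus read even more in another organ, and the median level of these genes was 38.8 CPM in stem, 33.8 in root, 19.6 in leaf, 17.6 in flower and 8.94 in shoot apex. The genes higher in shoot apex had medians of 17.6 CPM in shoot apex, 10.2 in flower, 7.72 in leaf, 4.10 in root and 3.65 in stem.

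**Figure D4:**
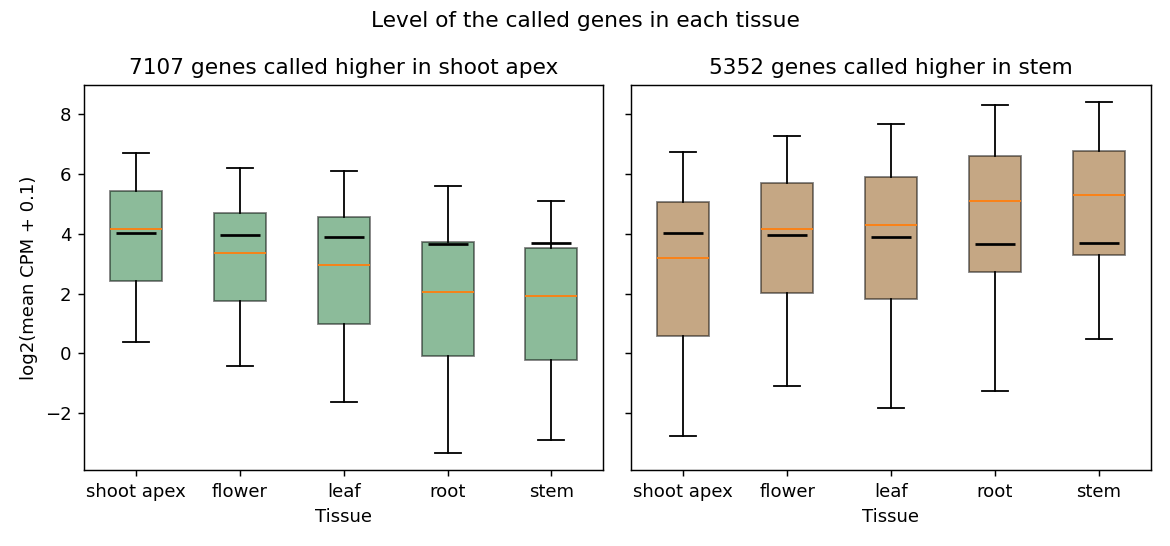
Boxes show log2(mean CPM + 0.1) in each tissue for the 7107 genes called higher in shoot apex (left) and the 5352 called higher in stem (right), with quartiles, the set's median in orange, whiskers from the 5th to the 95th percentile, and a short black line at the median of all 27055 genes. Shoot apex and stem chose the sets, so what the panels add is the order of the other organs, with flower nearest to shoot apex and root nearest to stem.

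Single genes showed these arrangements and their exceptions. E3N88_26405 stood at 348, 427 and 455 CPM in shoot apex and 73.0, 78.3 and 44.3 CPM in stem, with all tip libraries above all stem libraries (log2 fold change 2.66 ± 0.40, SE, edgeR adjusted p = 6.16e-05). It was also higher in leaf than in root (edgeR adjusted p = 0.00124), with a log2 difference of 1.76. E3N88_04650 belongs to the small group called higher in shoot apex than in stem and higher in root than in flower. It stood at 179.7, 143 and 152 CPM in shoot apex and 62.3, 56.2 and 41.3 CPM in stem. Root was at 54.3, 116 and 116 CPM (95.5 ± 35.7 CPM), with replicate 1 within the stem range, and flower at 38.1 ± 8.27 CPM. Root was not tested against stem. E3N88_06515 was at 327, 319 and 333 CPM in shoot apex and 157, 157 and 165 CPM in stem, and leaf lay at 338 ± 21.1 CPM. The log2 fold change of this gene was 1.03 ± 0.15 (SE, edgeR adjusted p = 4.47e-05), just past the 2-fold limit, and the call was lost in 7 of 16 alternatives, with adjusted p from 8.61e-14 to 0.402.

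The heavily read stem genes differed in their root level. E3N88_24686 stood at 74.0, 60.3 and 59.5 CPM in shoot apex and 1647, 1637 and 1646 CPM in stem, where the replicates were nearly equal, stem replicate 3 included. The fitted log2 fold change was -4.67 ± 0.42 (SE, edgeR adjusted p = 1.01e-06). Root was the lowest organ for it, at 35.6 ± 23.0 CPM, with flower at 230.5 ± 42.7 CPM. E3N88_38007 stood at 438, 399 and 464 CPM in shoot apex and 2779.6, 2831 and 2229 CPM in stem, with leaf at 1530.3 ± 244 CPM and root at 718 ± 167 CPM. E3N88_01270 stood at 409, 374 and 443 CPM in shoot apex and 4100.3, 4503 and 1232 CPM in stem, higher in every stem library than in any tip library, and root held still more, at 8593 ± 4479 CPM.

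A missed threshold does not show that a gene is even, so even genes were counted from intervals. For 5075 genes, 18.8% of those tested, the 95% interval of the log2 fold change lay between -1 and 1 and each tissue had more than 3 reads. They had a median of 41.5 CPM over the 6 libraries, and 819 of them passed the adjusted p threshold with a difference of under 2-fold. A further 9521 genes were neither called nor shown to be even, with a median of 6.22 CPM. The most heavily read even gene was E3N88_27411, at 835, 783 and 814 CPM in shoot apex and 727, 692 and 645 CPM in stem. Here the log2 fold change was 0.24 with a 95% interval of -0.37 to 0.84 (edgeR adjusted p = 0.49). The narrowest interval belonged to E3N88_06963, at 118, 111 and 116 CPM in shoot apex and 85.4, 86.8 and 87.3 CPM in stem. Its difference of 0.41 on the log2 scale, with an interval of 0.15 to 0.66, stayed well inside 2-fold. It passed the adjusted p threshold with all libraries (edgeR adjusted p = 0.00876), but not without shoot apex replicate 1, 2 or 3 (0.089, 0.0516 and 0.0709). Between flower and root, 11.0% of the even genes were higher in flower and 7.96% in root, where the shares of all genes were 27.0% and 17.9%.

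Stem replicate 3 lay on the stem side of nearly all genes called without it, but nearer to shoot apex than the other stem libraries did. It was also the stem library with the most counts, and every shoot apex library held more still. The part of depth in this position was not tested. When each library was left out in turn and the genes were called without it, the left-out library could be measured on calls it had not made, although the opposite tissue's libraries were shared. Only genes that were also tested in the fit to all libraries were measured. Of 5625 such genes called higher in stem without stem replicate 3, that library was on the same side of the shoot apex mean for 98.6% and at least 2-fold away for 72.3%. The same figures were 97.7% and 90.5% for stem replicate 1 and 98.0% and 89.4% for stem replicate 2. In the other direction, stem replicate 3 was at least 2-fold below shoot apex for 78.3% of 6904 genes, against 94.0% and 91.6% in stem replicates 1 and 2. For the shoot apex libraries the shares were 96.9 to 98.3% of the genes higher in shoot apex and 86.1 to 89.6% of those higher in stem. Genes called in every one of the 6 fits that each left out 1 library numbered 5567 for shoot apex and 4481 for stem.

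**Figure D5:**
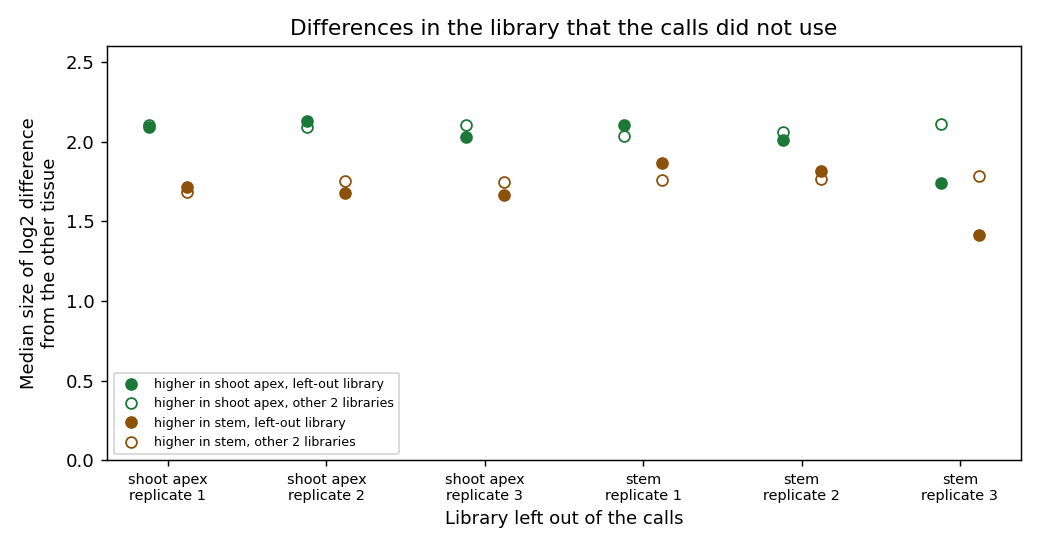
For each library left out, filled points give its median log2 difference (as a size) from the mean of the other tissue, and open points give the same for the 2 remaining libraries of its tissue. Both cover genes called without the left-out library and also tested with all libraries. Green marks genes higher in shoot apex and brown genes higher in stem. Filled and open points lie close together except for stem replicate 3, at 1.42 against 1.78 for genes higher in stem and 1.74 against 2.11 for genes higher in shoot apex.

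A smaller set of genes stood out in stem replicate 3 alone. It was more than 4-fold above both other stem libraries, and at 10 CPM or more, for 117 genes, and more than 4-fold below both for 127 genes that were at 10 CPM or more in the others. For stem replicate 1 these numbers were 19 and 0, and for stem replicate 2 they were 0 and 0. The 117 genes had medians of 3.11, 2.96 and 26.0 CPM in stem replicates 1, 2 and 3 and 3.82 CPM in shoot apex. Among flower, leaf and root their mean was highest in leaf for 61, in root for 35 and in flower for 21, while leaf led for 30.4% of all genes. Of these 117 genes 53 (45.3%, where 19.8% of all genes were) counted as higher in stem, and 21 of the 53 were also called without stem replicate 3. The 127 genes had medians of 55.7, 40.5 and 6.12 CPM in stem replicates 1, 2 and 3. Their mean was highest in root for 56, in flower for 41 and in leaf for 30, where the shares of all genes were 33.7%, 35.8% and 30.4%. Of the 127 genes, 74 (58.3%) were called higher in stem and 33 (26.0%) in shoot apex, against 19.8% and 26.3% of all genes. The stem libraries that chose both groups also made the calls, so these shares of calls carry no test. The part of these genes in the position of this library was not tested.

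Within the stem, E3N88_25331 varied most among called genes that averaged 100 CPM or more there. Its CPM were 836, 251 and 17.1 in stem replicates 1 to 3 and 3.86, 1.12 and 0.472 in shoot apex replicates 1 to 3. Every stem library was still above every tip library. The log2 fold change was -7.64 ± 1.42 (SE, edgeR adjusted p = 0.000342), and it was -6.18 without stem replicate 1, -8.29 without stem replicate 3 and -8.88 without shoot apex replicate 1. The 16 alternatives gave adjusted p from 1.29e-09 to 0.00287. Within shoot apex the most variable was E3N88_38580, at 82.2, 273 and 284 CPM, where replicate 1 was the low one, and at 863, 789 and 606 CPM in stem (log2 fold change -1.82 ± 0.36, SE, edgeR adjusted p = 0.00055). Shoot apex replicate 1 was more than 4-fold below both others for 80 genes and above both for 7, while replicates 2 and 3 had no such gene.

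Called genes also sat next to each other in the numbering of the IDs. Of the 5147 genes higher in shoot apex whose next-numbered ID was tested, that ID was higher in shoot apex too for 32.6%, where 26.3% of all genes were, and was higher in stem for 16.3%. Of 3889 genes higher in stem, the next ID was higher in stem for 26.4%, where 19.8% of all genes were, and was higher in shoot apex for 22.6%. Runs of at least 3 consecutive IDs numbered 306 for shoot apex and 168 for stem. With such large shares of genes called, many runs would arise without any link between neighbours, and the expected number is not given here. ID numbers are not positions, and no genome was used here to say whether such genes are neighbours or copies of one another.

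The longest run of the shoot apex direction was E3N88_39256 to E3N88_39264, 9 IDs with means of 1.53 to 39.8 CPM in shoot apex and 0.033 to 5.24 CPM in stem. Their log2 fold changes were 2.71 to 5.16, with edgeR adjusted p of at most 0.00334. In root 7 of the 9 had no read, and leaf and flower lay between, at 0.525 to 25.8 and 0.351 to 16.9 CPM. The longest run of the stem direction, E3N88_18364 to E3N88_18372, also had 9 IDs, with means of 3.92 to 196 CPM in stem and 0.074 to 4.10 CPM in shoot apex. Their log2 fold changes were -6.53 to -2.81, with edgeR adjusted p of at most 0.0046. All 9 were highest in stem replicate 1 and lowest in stem replicate 3.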

How the data were processed

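RNA sequencing counts of 15 libraries were used, with the 6 of shoot apex and stem as the comparison. Raw counts of reads for 41487 gene IDs, not normalized, were deposited in 1 table; HISAT2 is named in the submitters' processing notes, but the sources used here give neither its version nor the counting program, genome build, annotation or strand setting. The tests ran in edgeR 4.0.16 under R 4.3.3: filterByExpr kept 27055 genes with 99.9% of counts, TMM scaling was applied, and the model had a term for each tissue and took in all 15 libraries, so that tissues shared 1 estimate of the spread. The same fit gave the contrasts of flower, leaf and root. An interval was the log2 fold change with its SE (the fold change over the root of F) and the fitted degrees of freedom. Log2 CPM used a prior count of 2. The procedure was tested on simulated counts in which a small set of genes was raised in shoot apex and none was lowered. That setting cannot test the scaling where many genes differ in both directions. Alternatives were RLE factors, plain totals, 2 other filters, DESeq2 1.42.0, limma 3.58.1 (voom), glmTreat, the 6 libraries alone, a replicate block, removal of 2 abundant IDs and each library left out.

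IDs were named by rule: in each direction the called gene with the highest CPM and the one with the largest fold among genes with 10 CPM or more and over 3 reads in the lower tissue; the gene of highest CPM called in both this and another contrast; the even gene of highest CPM and of narrowest interval; the called gene of at least 100 CPM with the widest replicate range; and the ends of the longest runs. The comparison and rules were chosen with earlier results of these data known. Counts per library limit precision. Exact intervals of ratios and floors cover counting error only, whereas intervals of log2 fold changes include the spread between libraries.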

Additional observations from a re-analysis of the deposited data

How the results depend on the processing

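Of 105 recomputed counts and shares, 91 stayed within 1.5 times (shares within 1 SD) of the reported value. Tested against 2-fold with glmTreat, the shoot apex direction held 4585 genes and the stem direction 3394. With plain library totals, 5210 genes of the shoot apex direction were higher in flower over root, 1311 of the stem direction in root over flower (57.5% and 35.2% of 9053 and 3728 genes, against 35.6% and 13.0% of all genes), and 768 of the stem direction in leaf over flower (20.6%, against 13.1%). The genes higher in shoot apex then took 34.7% of shoot apex counts, and those higher in stem 33.0% of stem counts; with RLE factors the former took 24.7%. With a filter of 10 CPM in 3 libraries, which tests fewer genes, 245 genes of the shoot apex direction were higher in root over flower, 435 in root over leaf, and 1033 in flower over leaf; with fits to single pairs of tissues the second was 430. Runs with 1 ID of gap allowed numbered 632 and 364. Without 1 library, the directions held 6299 to 6984 genes for shoot apex and 5142 to 5672 for stem, and 4026 to 4485 were even. The minimum of reads for even genes was set after the data were seen, and 5549 were even without it. The same-numbered shoot apex and stem replicates did not deviate together (r = -0.091, 0.062 and -0.139), and 1 shoot apex library correlated best with its own number. The labels do not say whether same-numbered libraries share a plant or batch, and these correlations cannot decide it. With a replicate block the directions held 6961 and 5241 genes. No alternative called a gene in the direction opposite to the reported one. Of 223 values of single genes, the call with its 2-fold limit was lost in 7, all of E3N88_06515. Of the even genes, E3N88_27411 passed the adjusted p threshold with plain totals (0.0397), and E3N88_06963 missed it without shoot apex replicate 1, 2 or 3 (0.089, 0.0516 and 0.0709) and, as for any gene well inside 2-fold, when tested against 2-fold. The causes of these shifts were not tested.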
